A study of Mus musculus with 5 samples.

Results

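The Lpl-high Apoe progenitors of resting mouse muscle were 445 of 8107 filtered cells in the muscle library, a share of 5.49% (exact binomial 95% interval 5.00 to 6.01), and 445 of 37519 filtered cells in the whole series. They were chosen from their own counts: Lpl at 20 or more unique molecular identifiers (UMIs) per 10,000, at least 1 UMI each of Apoe and Pdgfra, Rgs5 below 5 UMIs per 10,000, and at most 2 of Dpp4, Pi16, Cd55, Smpd3 and Efhd1 detected. A cell passed the filter with 500 or more genes and no more than 10% of UMIs from mitochondrial genes. Because the same counts chose the cells and the library has no replicate, every level below is a description with no test, and intervals cover counting error only.

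The muscle library held sorted tdTomato-positive mesenchymal progenitors from hindlimb muscle of C57BL/6J mice of genotype Hic1CreERT2/CreERT2;Rosa26LSLtdTomato/+. The 4 sarcoma libraries held tdTomato-positive epithelioid sarcoma cells of genotype Hic1CreERT2/CreERT2;Rosa26LSLtdTomato/LSLtdTomato;Smarcb1FL/FL, taken at endpoint from shoulder, head, head/ear and hip in sarcomas 1 to 4. Mice of both groups carry Cre recombinase in both copies of Hic1 and are labelled as given 2.5 mg tamoxifen in 100 µL oil on each of 5 days at 8 weeks of age, with 10 days of washout. The reporter marks cells with a history of Hic1 expression, so unlabelled muscle cells were sorted away, and the Smarcb1 deletion is driven in the same lineage. The labels do not say how many animals gave the muscle library.

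Pdgfra-positive mesenchymal progenitors, also called fibro-adipogenic progenitors, lie between muscle fibres, build matrix, feed muscle stem cells with secreted factors, and can turn into fibroblasts or fat cells. Lpl encodes lipoprotein lipase, the secreted enzyme that frees fatty acids from circulating triglyceride-rich particles, and Apoe encodes apolipoprotein E, the ligand by which cells take up lipoprotein remnants. Lipoprotein lipase is matured in the endoplasmic reticulum by Lmf1 and Sel1l, carried to the vessel wall by Gpihbp1 of endothelial cells, and inhibited by Angptl4.

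The muscle library held 6.41e+07 UMIs before filtering, and the sarcoma libraries 1.52e+08 to 2.13e+08. The members had a median of 8142 UMIs and 2793 detected genes, against 7532.5 UMIs and 2672 genes in all other filtered cells. Across the 4 sarcomas the median was 20005 to 28657.5 UMIs. Any pair of libraries shared 12 to 22 cell barcodes, and 4 members' barcodes recurred in a sarcoma (1 in sarcoma 2 and 3 in sarcoma 3). Besides all other filtered cells (7662), a pair of closer classes serves as comparison within muscle. The Lpl-low progenitors (1425 cells, median 7855 UMIs) meet every criterion except that Lpl is below 20 UMIs per 10,000. The Dpp4-side progenitors (2683 cells, median 9807 UMIs) have Pdgfra, low Rgs5 and at least 3 of the 5 excluded genes.

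The values that define the members spread widely. Lpl ran between 3 and 87 UMIs per member with a median of 22, and Apoe between 1 and 277 UMIs with a median of 19. Apoe rested on a single UMI in 39 members, and Pdgfra did so in 56. Holding at least 1 UMI does not by itself set progenitors apart. In cells with Rgs5 at 20 or more UMIs per 10,000, a mural class with a median of 3297 UMIs, 11.7% held an Apoe UMI and 52.4% an Lpl UMI. Whether those UMIs are the mural cells' own expression was not tested. The threshold cuts a continuous range. The 88 members at 20 to 22 Lpl UMIs per 10,000 had a median of 12.5 Apoe UMIs, and the 91 Lpl-low progenitors at 18 to 20 had a median of 14. Of 648 cells over the Lpl threshold, 203 were not members; 80 of these failed on Apoe alone, 42 on the 5 excluded genes alone, 33 on Pdgfra alone and 4 on Rgs5 alone.

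**Figure D1:**
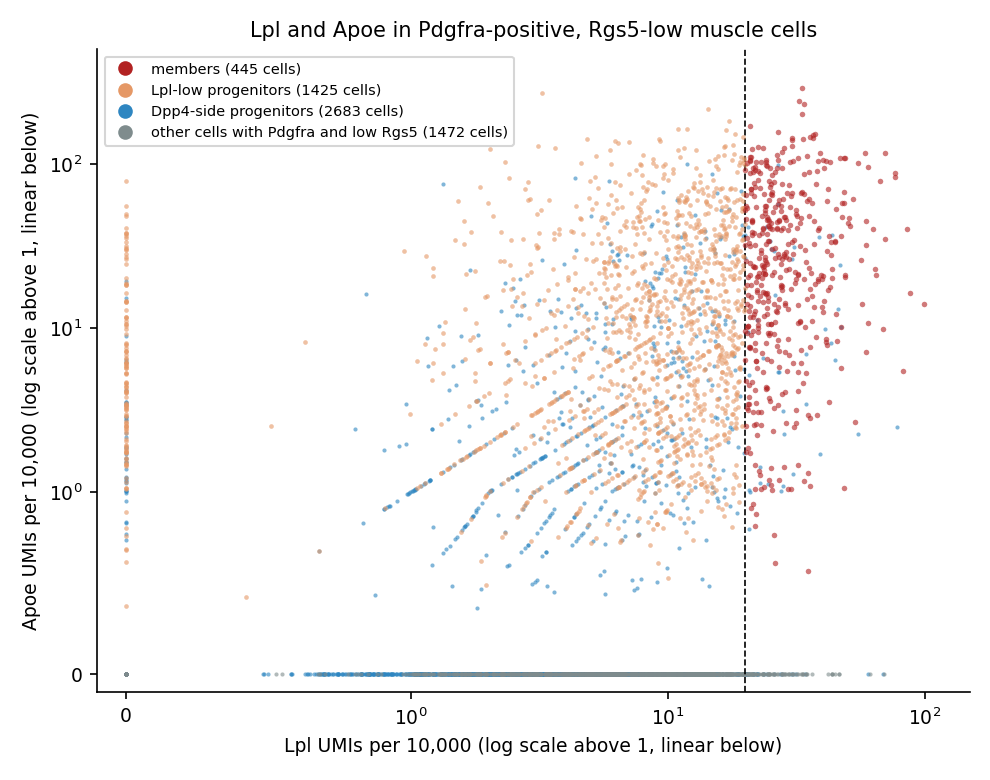
Apoe against Lpl in UMIs per 10,000 for muscle cells with Pdgfra and low Rgs5, 1 point per cell (445 members, 1425 Lpl-low and 2683 Dpp4-side progenitors, 1472 others); axes are logarithmic above 1 and linear below. The dashed line is the Lpl threshold of 20; the members continue the cloud of Lpl-low cells with no gap, and 0 Apoe lies along the bottom.

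The label of progenitor had partial support from the 9 listed progenitor markers that the rule did not use. Of these, Lum and Cxcl14 were at least 2-fold higher in members than in all other cells. None was 2-fold lower, and the median log2 ratio was 0.46. Against Dpp4-side progenitors, Lum, Smoc2 and Cxcl14 were higher and Cd34 was lower. Dcn, a matrix proteoglycan, stood at 22743 CPM (the UMIs of a gene per 1,000,000 UMIs, both summed over all cells of the class) in members, against 23618 CPM in Lpl-low progenitors and 16413 CPM in all other cells. Gsn, an actin-severing protein abundant in these cells, stood at 43470 CPM in members and 31696 CPM in all other cells. The defining markers of endothelial, haematopoietic, myogenic and keratinocyte cells were at or near 0, whereas other lists held more. The 10 endothelial markers summed to 2.45 CPM in members and 35.7 CPM in all other cells, with Cdh5, Flt1, Emcn, Cldn5, Gpihbp1 and Vwf at 0 in members. The 15 haematopoietic markers summed to 3.82 CPM in members and 5.53 CPM in all other cells, with 10 at 0 in members. The 11 myogenic markers summed to 45.5 CPM in members and 118 CPM in all other cells; Pax7, Myf5, Myod1, Myog and Chrnd were at 0 in members, and Acta1, Tnnt3 and Des of muscle fibres at 12.5, 11.2 and 11.7 CPM. All 6 keratinocyte markers were at 0 in members. The 10 glial markers summed to 476 CPM in members and 683 CPM in all other cells, of which Pmp22 made 427 CPM in members, with Sox10, Foxd3 and Kcna1 at 0. The 9 perineurial and nerve-associated markers summed to 97.0 CPM in members, 92.6 CPM in Lpl-low progenitors and 68.7 CPM in all other cells. Of these, Ngfr, a neurotrophin receptor, was at 24.0 CPM in members, 9.85 CPM in Lpl-low progenitors and 3.72 CPM in all other cells. The 10 adipocyte markers summed to 142 CPM in members and 135 CPM in all other cells, nearly all of it Fabp4. The mural gene Notch3 was at 35.7 CPM in members, 15.3 CPM in Lpl-low progenitors and 688 CPM in the mural class. The reporter tdTomato was at 1105 CPM in members and 1140 CPM in all other cells, and Smarcb1 at 80.9 CPM in members and 89.1 CPM in all other cells.

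Against the Lpl-low progenitors, which differ by rule in Lpl alone, the members were higher in few genes. These included the activin-binding protein Fst, the adhesion molecule Vcam1, complement C4b, the metalloproteinase Mmp3, and Cyp1b1, an oxidizing enzyme of steroids and retinoids. Of 6346 genes at 20 CPM or more in the higher class, 30 were at least 2-fold higher in members (0.473%) and 44 were at least 2-fold lower (0.693%), and the median log2 ratio over all of them was -0.01. Lpl itself, which the rule sets, stood at 2974 CPM in members and 914 CPM in Lpl-low progenitors. Apoe, for which both classes have the same minimum, stood at 4028 CPM (3964 to 4094) in members and 1944 CPM (1919 to 1970) in Lpl-low progenitors, a log2 ratio of 1.05.

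Mmp3, Cyp1b1 and Cxcl13 are shown by the sequence before their start because they lead the comparison and have an entry in the promoter table, in which 9 of the 15 highest genes matched. Bases are RefSeq's on build GRCm38.p6, the 250 bases before the annotated start, 5′ to 3′ on the gene's strand. Capitals mark matches, on either strand, to any of 3 motifs described after the sequences.
Mmp3, chr9:7445572-7445821, plus strand: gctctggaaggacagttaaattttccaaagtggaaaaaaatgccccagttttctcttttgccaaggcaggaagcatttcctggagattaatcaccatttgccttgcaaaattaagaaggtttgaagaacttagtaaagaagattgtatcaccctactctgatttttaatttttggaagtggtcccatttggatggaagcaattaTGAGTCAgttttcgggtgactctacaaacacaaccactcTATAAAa
Cyp1b1, chr17:79715062-79715311, minus strand: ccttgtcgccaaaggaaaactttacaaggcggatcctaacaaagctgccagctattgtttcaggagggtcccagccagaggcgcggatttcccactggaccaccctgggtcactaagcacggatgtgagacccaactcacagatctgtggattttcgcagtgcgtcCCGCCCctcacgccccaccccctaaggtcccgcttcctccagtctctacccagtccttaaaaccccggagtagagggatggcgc
Cxcl13, chr5:95956689-95956938, plus strand: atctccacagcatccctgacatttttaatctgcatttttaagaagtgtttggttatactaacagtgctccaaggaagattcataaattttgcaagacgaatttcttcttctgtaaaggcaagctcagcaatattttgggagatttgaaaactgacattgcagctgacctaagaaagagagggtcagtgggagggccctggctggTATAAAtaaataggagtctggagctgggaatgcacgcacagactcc
The AP-1 site was searched as TGANTCA, which reads the same on both strands; it was found before Mmp3, and before 6.75% of 32851 promoters of this length. The TATA box, which was searched as TATAAA, was found before Mmp3 and Cxcl13, and before 12.4% of all promoters. The GC box was searched with the letters GGGCGG and was found, on the opposite strand, before Cyp1b1, and before 32.7% of all promoters. The CCAAT box, spelled as its name, was searched too, had no match in these windows, and is held by 33.8% of all promoters. A match is a string of letters, not a shown binding site.

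Fst (chr13:114452290-114458951, minus strand, GRCm38), whose product blocks activins and myostatin and so permits muscle growth, stood at 709 CPM (Poisson 95% interval 682 to 737) in members. It stood at 292 CPM (282 to 302) in Lpl-low progenitors, 216 CPM in Dpp4-side progenitors and 211 CPM in all other cells. The log2 ratio of members to Lpl-low progenitors was 1.28. Acvr2a, a receptor for activins and myostatin, was at 115 CPM (105 to 127) in members and 51.8 CPM (47.7 to 56.1) in Lpl-low progenitors. Both a ligand trap and a receptor of the activin pathway, named for their high ratios in this comparison, were thus more abundant in members. Of 27 measured genes of the BMP and TGF-beta list, on which Acvr2a does not stand, the 1 that was 2-fold higher was Fst itself. Bmp7 and Mstn were the 2 that were lower, and the median log2 ratio was -0.04. Over all genes, 0.473% were higher and 0.693% lower. With the tenocyte-marker cells described below left out, Bmp7 alone was lower. Gdf10, a ligand of the same superfamily, was at 111 CPM in members, 74.98 CPM in Lpl-low and 12.6 CPM in Dpp4-side progenitors.

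Vcam1, through which cells hold integrin-bearing partners, stood at 192 CPM (178 to 207) in members, 77.1 CPM (72.1 to 82.4) in Lpl-low progenitors and 27.0 CPM in Dpp4-side progenitors. The order of the classes was the same in shares of thinned cells. After each cell was thinned to 2000 UMIs, which left 435 members, 24.1% of members, 12.3% of Lpl-low and 4.23% of Dpp4-side progenitors held a Vcam1 UMI; before thinning the shares were 56.0%, 32.5% and 17.5%. In the mural class, which serves as background, 1.23% of thinned cells held one. Fst was found in 57.0% of thinned members, 30.4% of Lpl-low and 27.8% of Dpp4-side progenitors, against 7.37% of the mural class; unthinned, the 4 shares were 82.5%, 55.9%, 61.0% and 10.4%.

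C4b, which feeds the classical complement cascade, was at 560 CPM (536 to 585) in members, 260 CPM (251 to 270) in Lpl-low and 98.8 CPM in Dpp4-side progenitors. Its near-identical neighbour C4a can share reads with it, so the split between the pair is uncertain. C3, the central complement protein, was at 1083 CPM in members, 755 CPM in Lpl-low and 687 CPM in Dpp4-side progenitors, a smaller difference (log2 ratio to Lpl-low 0.52). C2 was at 87.2 CPM in members, 54.1 CPM in Lpl-low and 13.5 CPM in Dpp4-side progenitors. Cfb was at 71.1 CPM in members, 42.5 CPM in Lpl-low and 24.6 CPM in Dpp4-side progenitors. Of the 12 complement genes at 20 CPM or more, C4b alone was 2-fold higher than in Lpl-low progenitors and Clu was 2-fold lower, with a median of 0.33. Over all genes, 0.473% were higher and 0.693% lower in that comparison.

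Mmp3 was at 332 CPM (314 to 351) in members and 143 CPM (136 to 150) in Lpl-low progenitors. Igfbp3, which binds insulin-like growth factors, was at 389 CPM (369 to 409) in members, 198 CPM (190 to 206) in Lpl-low and 31.1 CPM in Dpp4-side progenitors. In the Lpl-low progenitors with 0 Lpl UMIs, Igfbp3 stood at 417 CPM. The top 5% of members held 54.4% of Igfbp3 UMIs and 50.7% of Mmp3 UMIs. An Mmp3 UMI was found in 37.5% of members and an Igfbp3 UMI in 45.8%. Cyp1b1, with a UMI in 31.0% of members, had the third largest ratio of the named genes after Fabp4 and Cxcl13, at 69.8 CPM (61.5 to 78.9) in members and 25.5 CPM (22.6 to 28.6) in Lpl-low progenitors, a log2 ratio of 1.45. Ntrk2, the receptor for brain-derived neurotrophic factor, was at 206 CPM in members and 95.7 CPM in Lpl-low progenitors. Sfrp1, a secreted WNT antagonist, was at 129 CPM in members and 64.7 CPM in Lpl-low progenitors. Dapk1, a calcium-regulated death kinase, was at 237 CPM in members and 119 CPM in Lpl-low progenitors. These genes were thus about 2-fold apart between neighbouring classes and further apart from the Dpp4 side.

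Some high genes sat in few members. Cxcl13, the chemokine that draws B cells, was at 74.1 CPM in members and 23.6 CPM in Lpl-low progenitors, but only 52 members held a UMI, the top 5% of members held 86.0% of its UMIs and 1 member held 29.4%. Its level was 18.5 CPM in members below their median depth and 103 CPM in the deeper members. Fgf10, a mesenchymal growth factor, was at 31.9 CPM (26.4 to 38.2) in members and 11.8 CPM (9.87 to 14.0) in Lpl-low progenitors.

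**Figure D2:**
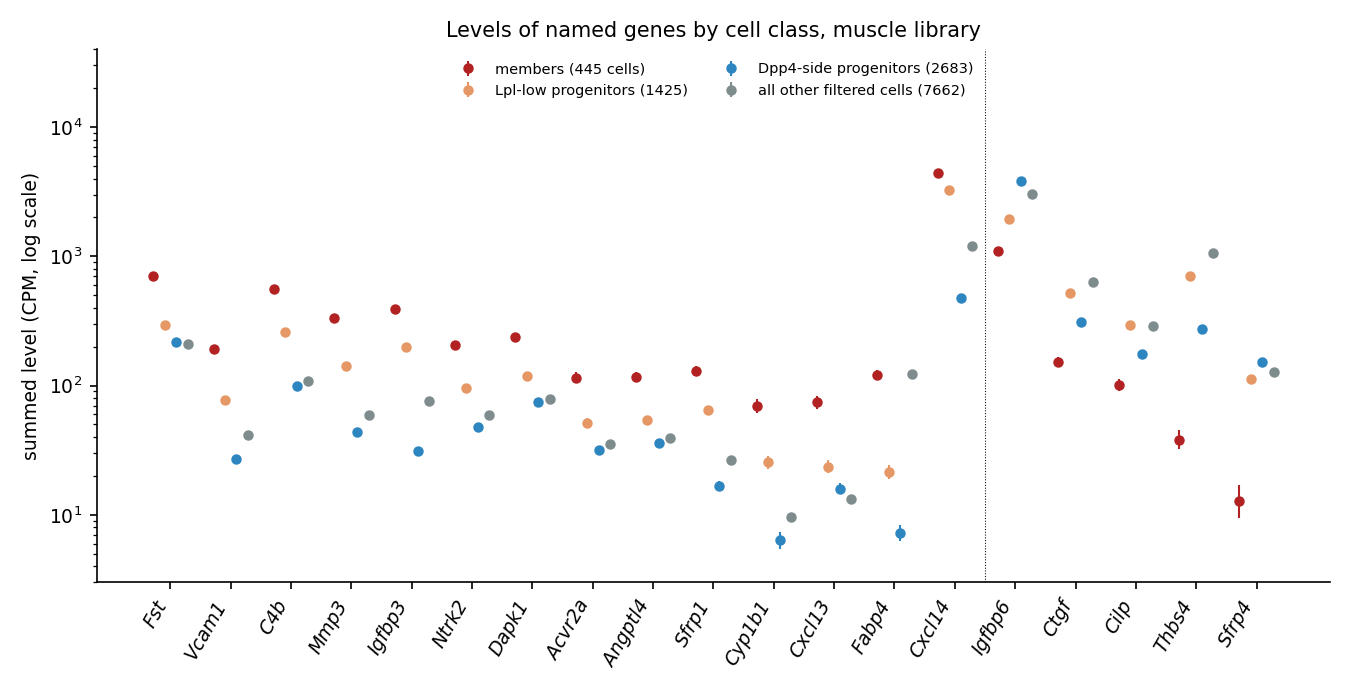
Summed level in CPM (log scale) of 19 genes in members, Lpl-low progenitors, Dpp4-side progenitors and all other filtered cells of the muscle library; bars are exact Poisson 95% intervals. Genes left of the dotted line are highest in members among the 4 classes except Fabp4, which is at 121 CPM in members and 124 CPM in all other cells; genes right of it are lowest in members.

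The genes lower in members than in Lpl-low progenitors were led by tendon and matrix genes. Thbs4, a thrombospondin of tendon and muscle junctions, was at 38.2 CPM (32.1 to 45.0) in members and 710 CPM (695 to 726) in Lpl-low progenitors. Fmod, a tendon proteoglycan, was at 10.9 CPM in members and 194 CPM in Lpl-low progenitors, and Tnmd, a tendon membrane protein, at 11.2 CPM in members and 136 CPM in Lpl-low progenitors. The 10 tenocyte markers summed to 93.5 CPM in members and 1271 CPM in Lpl-low progenitors. Cells with at least 2 of Tnmd, Fmod, Chodl, Scx, Kera and Cilp2 were 4 of 445 members and 64 of 1425 Lpl-low progenitors. With such cells left out of both classes, the lower genes numbered 23 of 6332 (0.363%) and the higher genes 28 (0.442%). Comp, which was not used to pick those cells, then had a log2 ratio of 0.55 in place of -1.38, so its difference turned on them. Fmod had a ratio of -0.14 in place of -4.16, which follows in part from its use in picking the cells. Thbs4 kept a ratio of -3.80 and Sfrp4, a secreted WNT modulator, one of -3.03. Ctgf, a matricellular target of TGF-beta and YAP, was at 153 CPM in members and 517 CPM in Lpl-low progenitors, with a ratio of -1.40 without those cells. Anxa3 was at 60.8 CPM in members and 144 CPM in Lpl-low progenitors, and Nov, a matricellular protein of the Ctgf family, at 36.5 CPM in members and 79.6 CPM in Lpl-low progenitors.

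The level of some genes, Fst, Vcam1 and C4b among them, differed in steps along Lpl below and above the threshold, while that of most named genes did not. Among the 1870 cells that met all other criteria, cells were binned at 0, above 0 to below 10, 10 to below 20, 20 to below 40, and 40 or more Lpl UMIs per 10,000, with 125, 719, 581, 378 and 67 cells. Fst was at 159, 228, 388, 666 and 974 CPM across these bins, and Vcam1 at 37.6, 63.0, 99.7, 179 and 274 CPM. C4b was at 116, 234, 313, 497 and 952 CPM. Each bin was higher than the one below for 30 of 146 named genes that the gate does not use, Cyp1b1, Cxcl12, Col4a1 and Dapk1 among them, lower for 20, and neither for 96. Many of these genes were picked for their ratio of members to Lpl-low progenitors, which is the same division by Lpl, so the counts describe them and support nothing further. Igfbp6 was at 2606, 2091, 1635, 1157 and 751 CPM, and Ctgf at 891, 636, 320, 170 and 51.3 CPM. Cells with tenocyte markers made up 16.0, 4.87, 1.55, 1.06 and 0% of the bins, and the 0 bin was shallower (median 4817 UMIs, against 7432 to 8370 in the others). With those cells left out, 12 of the 20 lower genes and 27 of the 30 higher ones kept their order. The genes that lost it were Ctgf, Thbs4, Fmod, Tnmd, Ptn, Pamr1, Tnc and Cilp2 among the lower, and C3, Col3a1 and Igf1 among the higher. Ctgf was then at 449 and 483 CPM in the first 2 bins. Fmod, Tnmd and Cilp2 were used to pick the cells left out, so their loss of order follows in part from that choice.

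**Figure D3:**
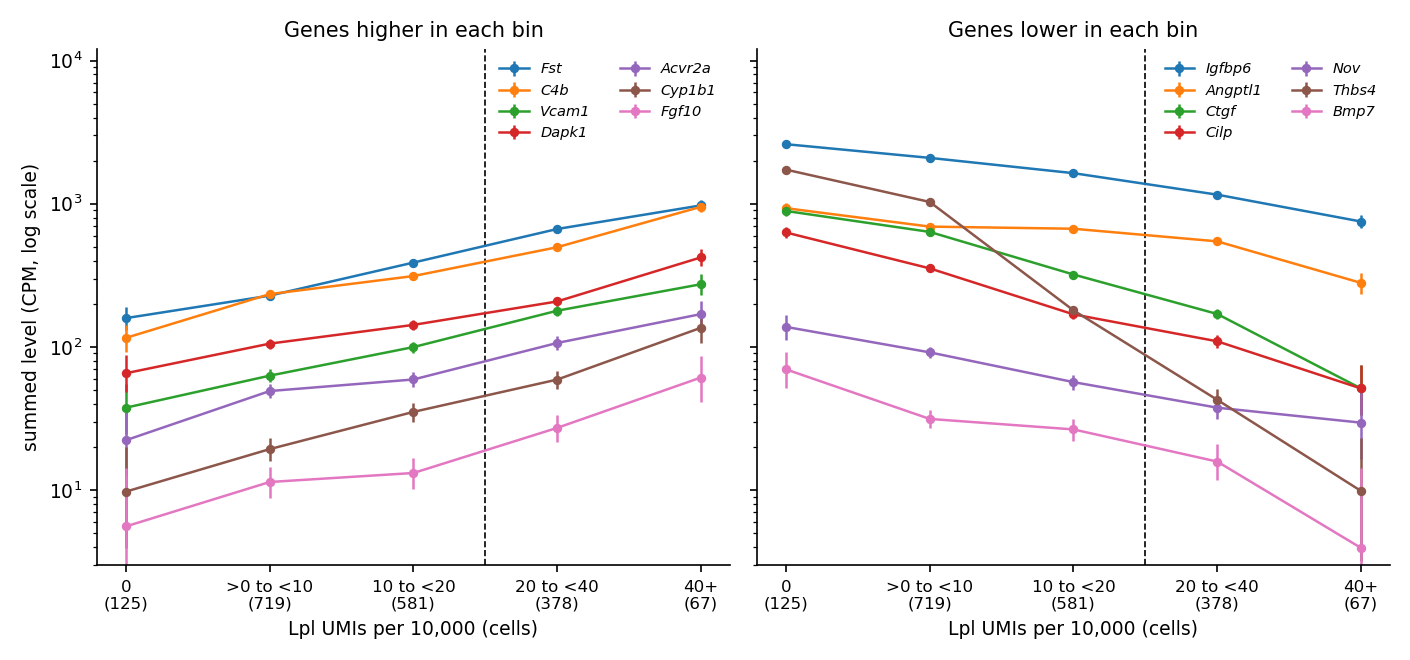
Summed level in CPM (log scale) across 5 bins of Lpl among the 1870 cells that meet the rest of the gate, with exact Poisson 95% intervals and cells per bin in parentheses; bins right of the dashed line are the members. The 7 genes on the left, such as Fst at 159 to 974 CPM, step up in each bin and the 7 on the right, such as Igfbp6 at 2606 to 751 CPM, step down; without tenocyte-marker cells Ctgf and Thbs4 do not do so in the first 2 bins.

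Apoe, which the rule asks for at only 1 UMI, divided the members further. Members were split into 114 with Apoe below 10 UMIs per 10,000, 209 at 10 to below 50, and 122 at 50 or more, and set beside the 80 cells that had no Apoe UMI but met the rest of the gate; the cut points were chosen after the data were seen. Lpl stood at 2712, 2993 and 3173 CPM in the 3 sets of members and 2756 CPM in the cells without Apoe, and median depth at 8382, 7660 and 8481.5 UMIs, with 6848.5 UMIs in the cells without Apoe. The 3 sets of members were therefore close in Lpl and depth. Between members at 50 or more and members below 10, 135 of 6534 genes were at least 2-fold higher (2.07%) and 164 at least 2-fold lower (2.51%), with a median log2 ratio of -0.10 over all genes. These 2 sets held 1.09e+06 and 953410 UMIs, against 3.67e+06 in all members and 1.14e+07 in Lpl-low progenitors. Counting error therefore weighs more here, and these counts cannot be ranked against those of the Lpl comparison.

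Of 12 complement genes at 20 CPM or more in the higher of the 2 outer sets of members, C2, C3, C4b and Cfb were at least 2-fold higher with high Apoe and Clu was lower, with a median log2 ratio of 0.24. C4b was at 16.7 CPM (7.66 to 31.8) in cells without Apoe, and 283 CPM (250 to 319), 585 CPM (548 to 623) and 765 CPM (714 to 818) in members of low, middle and high Apoe. C3 was at 268, 620, 1136 and 1407 CPM over the same 4 sets. Emb, a cell adhesion glycoprotein, was at 1.86, 31.5, 99.8 and 134 CPM. Cells over the same Lpl threshold but without Apoe thus had little C4b or Emb. The 24 complement genes other than C4b and C3 differed less, and summed to 3185, 3287, 3349 and 3539 CPM over the 4 sets.

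Igfbp3 was at 127, 146, 283 and 757 CPM over the cells without Apoe and the low, middle and high members, and Ntrk2 at 54.0, 109, 200 and 300 CPM. Trf, which encodes the iron carrier transferrin, was at 24.2, 45.1, 72.7 and 134 CPM. Ctgf ran the other way, at 350, 261, 156 and 54.9 CPM, as did Igfbp6 at 2210, 1466, 1098 and 788 CPM. Fn1, which encodes fibronectin, was at 543, 413, 314 and 156 CPM, and Ret, a receptor for glial-derived growth factors, at 74.4, 62.9, 44.4 and 13.7 CPM. Immediate-early and heat-shock genes, which respond to cell dissociation, summed to 28093, 31667, 35518 and 41363 CPM over the 4 sets. Their part in these differences was not tested.

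**Figure D4:**
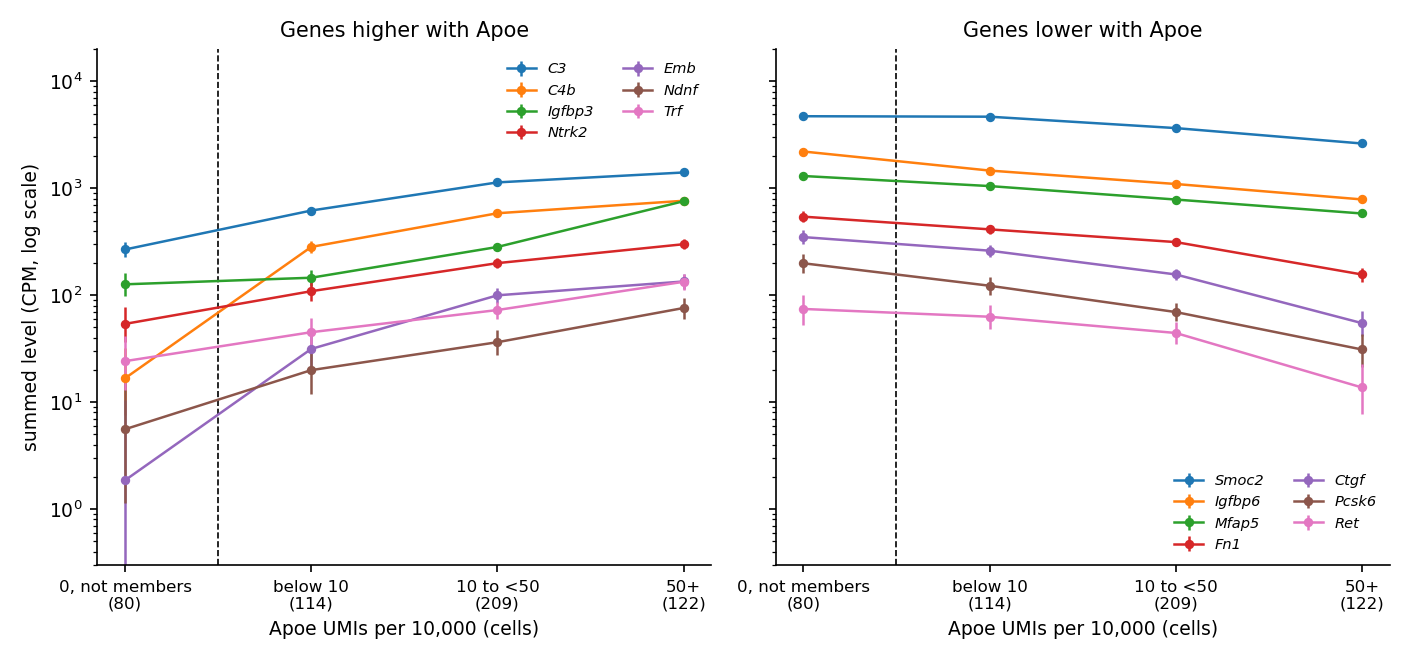
Summed level in CPM (log scale) in Lpl-high cells binned by Apoe UMIs per 10,000, with exact Poisson 95% intervals and cells in parentheses; the first point (80 cells) has no Apoe and lies outside the gate, left of the dashed line. C4b runs between 16.7 and 765 CPM upward with Apoe, and Ctgf between 350 and 54.9 CPM downward.

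A small set of members held Fabp4 and Pparg, genes of fat-cell formation that the mural class also held, without the markers of mature fat cells. Fabp4, a fatty acid carrier of fat cells and capillary endothelium, was at 121 CPM in members, 21.5 CPM in Lpl-low progenitors and 7.28 CPM in Dpp4-side progenitors, yet 45 of 445 members held a UMI and the top 5% of them held 94.8% of its UMIs. The 18 members with 5 or more Fabp4 UMIs (4.04%, 2.41 to 6.32) compare with 9 of 1425 Lpl-low (0.632%, 0.289 to 1.196) and 3 of 2683 Dpp4-side progenitors (0.112%, 0.0231 to 0.326). These 18 cells were picked after their values were seen, and their Fabp4 ran between 5 and 78 UMIs with a median of 18.

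Pparg, the master regulator of fat-cell formation, had a UMI in 13 of the 18 cells and in 44 of the other 427 members, at 73.0 CPM (41.7 to 119) and 14.8 CPM (10.98 to 19.4). Cd36, a fatty acid transporter, was at 82.2 CPM in the 18 and 1.45 CPM in the other members, although 1 cell held 50% of its UMIs. Adipoq and Plin1, markers of mature fat cells, were at 0 in all 445 members. Angptl4 was at 288 CPM in the 18 and 106 CPM in the other members, and the gene for type III collagen, Col3a1, at 24099 CPM in the 18 and 12619 CPM in the others.

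The same 18 cells were low in genes typical of the other members. Cxcl14, a chemokine, was at 1187 CPM in the 18 and 4640 CPM in the others, Smoc2, a calcium-binding matrix protein, at 881 CPM in the 18 and 3791 CPM in the others, and Igfbp3 at 31.9 CPM in the 18 and 411 CPM in the others. Mural cells also hold Fabp4: it was at 1374 CPM in the Rgs5-high class, in which 73 of 695 cells had 5 or more UMIs. In the 18 members the mural gene Kcnj8 was at 4.56 CPM, against 2150 CPM in the mural class. Rgs5 was at 9.13 and 8340 CPM, a contrast that the rule and the choice of the mural class set. The endothelial marker Pecam1 was at 0 (up to 16.8 CPM). Cpe was at 173 CPM in the 18, 14.2 CPM in the other members and 542 CPM in the mural class. Epas1 was at 105, 18.5 and 289 CPM in the same order, while Mgp went the other way at 123, 1602 and 2381 CPM. Cd36 was at 82.2, 1.45 and 624 CPM in that order, and Pparg at 73.0, 14.8 and 37.4 CPM. A mural part in these 18 cells was not tested. The 18 cells were deeper, with a median of 11696 UMIs against 7917 in the other members. None of the 18 was among the 6% of cells with the highest doublet scores. The doublet caller flagged too few cells to have worked, so this ranking cannot decide whether these deeper cells are doublets.

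Apart from Fabp4, few listed lipid-handling genes were 2-fold apart between members and Lpl-low progenitors. The same was true of all genes, of which 0.473% were higher and 0.693% lower, so the counts below are not particular to lipid genes. Pparg was at 18.3 CPM (14.2 to 23.2) in members and 8.97 CPM in Lpl-low progenitors, both below 20 CPM. Of 20 measured genes of apolipoproteins and lipoprotein receptors other than Apoe, none was 2-fold higher and Clu was lower (median 0.08). Of 24 listed genes of lipase maturation, anchoring and inhibition, 14 reached 20 CPM; Angptl4 was the 1 that was 2-fold higher and none was lower, with a median of 0.02. Angptl4 was at 117 CPM (106 to 128) in members and 53.8 CPM (49.6 to 58.2) in Lpl-low progenitors, and at 69.2 CPM in shallow and 141 CPM in deep members. The maturation factor Lmf1 was at 16.9 CPM in members, 17.6 CPM in Lpl-low and 15.7 CPM in Dpp4-side progenitors, and Sel1l at 67.9, 58.3 and 66.6 CPM in the same order. Gpihbp1 was at 0 in members, which allows up to 3 UMIs in the class at this depth. Of 24 cholesterol and fatty acid synthesis genes, none was 2-fold higher or lower (median -0.05), and the lipoprotein receptor Lrp1 was at 986 CPM in members and 876 CPM in Lpl-low progenitors.

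Against the Dpp4-side progenitors the members differed in many more genes, with 296 of 6524 at least 2-fold higher (4.54%) and 281 lower (4.31%). The rule used 5 genes of this contrast, so the direction of the progenitor lists follows in part from it. Of 25 genes of the Dpp4 and Pi16 progenitor list that the rule did not use, 21 were 2-fold lower and none higher (median -2.26). They include the guidance factor Sema3c, at 23.7 CPM in members and 466 CPM in Dpp4-side progenitors, Fbn1, the fibrillin of elastic fibres, at 522 CPM in members and 1947 CPM in Dpp4-side progenitors, and Anxa3, at 60.8 CPM in members and 885 CPM in Dpp4-side progenitors. Of 28 measured genes of the Smoc2, Hmcn2 and Col15a1 list, 17 were higher and 2, Myoc and Thbs4, were lower (median 1.16). Against Lpl-low progenitors the medians of these lists were -0.37 and 0.09.

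Basement membrane genes were among those higher than on the Dpp4 side, 9 of 22 with none lower (median 0.67). Over all genes, 4.54% were higher and 4.31% lower. Of these 9, Col4a1, Col4a2, Col15a1 and Smoc2 were also counted in the Smoc2, Hmcn2 and Col15a1 list. Col4a1, a chain of type IV collagen, was at 2237 CPM in members, 1673 CPM in Lpl-low and 1046 CPM in Dpp4-side progenitors. Lamc3, a laminin chain, was at 25.3 CPM in members, 9.67 CPM in Lpl-low and 1.82 CPM in Dpp4-side progenitors. Among growth factors for muscle, nerve and vessel, 7 of 21 were higher and 7 lower. Igf1, which drives muscle growth, was at 588 CPM in members, 409 CPM in Lpl-low and 243 CPM in Dpp4-side progenitors. Gas6, the ligand of TAM receptors, was at 536 CPM in members and 142 CPM in Dpp4-side progenitors, and the neurotrophin gene Ntf3 at 167 CPM in members and 64.8 CPM in Dpp4-side progenitors.

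Of 18 adipogenic genes, 5 were higher than in Dpp4-side progenitors and none lower (median 0.72), where 4.54% of all genes were higher and 4.31% lower. Cebpa, a transcription factor of fat-cell formation, was at 63.2 CPM in members, 41.8 CPM in Lpl-low and 19.03 CPM in Dpp4-side progenitors. Dlk1, which restrains fat-cell formation, was at 55.1 CPM in members, 50.8 CPM in Lpl-low and 5.09 CPM in Dpp4-side progenitors. Cxcl14 was at 4433 CPM in members, 3282 CPM in Lpl-low and 478 CPM in Dpp4-side progenitors. Among chemokines and cytokines 6 of 19 were higher and 4 lower, the alarmin Il33 being lower at 45.0 CPM in members and 153.5 CPM in Dpp4-side progenitors. Immediate-early and heat-shock genes summed to 36259 CPM in members, 39327 CPM in Lpl-low and 25519 CPM in Dpp4-side progenitors, with 5 of 25, Fos and Jun among them, higher than on the Dpp4 side; their part in these results was not tested.

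**Figure D5:**
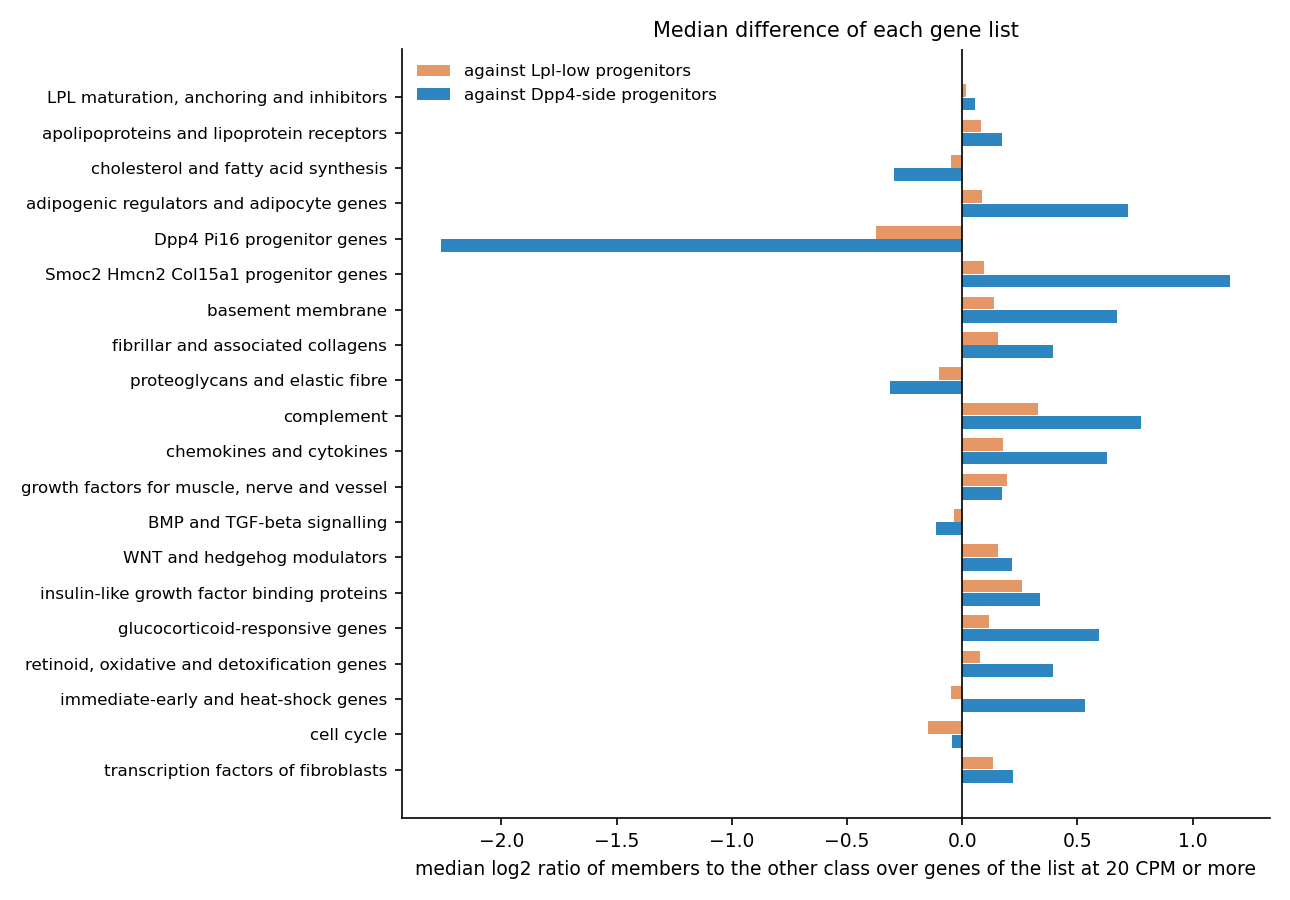
Median log2 ratio of members to Lpl-low progenitors (orange) and to Dpp4-side progenitors (blue) for 20 gene lists, over listed genes at 20 CPM or more in the higher class and without the genes of the gate; the cell cycle bars rest on 1 gene. The lowest median is that of Dpp4 and Pi16 genes against Dpp4-side progenitors (-2.26), and the medians against Lpl-low progenitors lie between -0.37 and 0.33.

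Against all other filtered cells, which also include mural, tenocyte-like and glial cells, 135 of 6524 genes were at least 2-fold higher (2.07%) and 206 lower (3.16%), with a median log2 ratio of -0.07. Vcam1 was at 192 CPM in members and 41.3 CPM in all other cells, C4b at 560 CPM in members and 109 CPM in all other cells, and Mmp3 at 332 CPM in members and 59.3 CPM in all other cells. The tenocyte markers summed to 93.5 CPM in members and 2192 CPM in all other cells. The mural markers other than Rgs5 summed to 348 CPM in members and 826 CPM in all other cells, and the rule removes cells high in Rgs5.

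Applied unchanged to the sarcoma libraries, the gate kept almost no cell. It took 0 of 7433, 0 of 8206, 0 of 6949 and 1 of 6824 cells in sarcomas 1 to 4, against 445 of 8107 in muscle; a count of 0 allows a share of up to 0.0404%, 0.0366% and 0.0432% in the first 3 sarcomas (3 counts of the total), and the 1 cell is 0.0147% (0.000371 to 0.0816). That cell had 18687 UMIs, with 50 of Lpl, 3 of Apoe and 3 of Pdgfra. The gate apart from Lpl was met by 435, 528, 1856 and 38 cells in the sarcomas, against 1870 in muscle. In those cells Lpl stood at 19.5, 28.4, 51.7 and 59.4 CPM in the sarcomas and 1416 CPM in muscle. How many of all genes are likewise lower in every sarcoma than in the 1 muscle library was not counted. Cells over the Lpl threshold, with no other criterion, numbered 7, 1, 2 and 2 in the sarcomas and 648 in muscle. With 1 muscle library there is no test of this difference, and genotype, body site, tumour and depth differ together and cannot be told apart.

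The other genes of the members stood at uneven levels in the cells of the sarcoma libraries that met the gate apart from Lpl. Apoe was at 96.4, 111, 292 and 111 CPM in sarcomas 1 to 4 and 2453 CPM in muscle, and Smoc2 at 27.8, 75.9, 526 and 93.2 CPM in the sarcomas and 3656 CPM in muscle. Cxcl14 was at 144, 608, 1468 and 553 CPM in the sarcomas and 3563 CPM in muscle. Mmp3 was at 109, 269, 1868 and 66.8 CPM in the sarcomas and 189 CPM in muscle, and Vcam1 at 332, 178, 229 and 14.8 CPM in the sarcomas and 105 CPM in muscle. Lpl, Apoe, Smoc2 and Cxcl14 were therefore lower in every sarcoma than in muscle, while Mmp3 and Vcam1 were higher in some and lower in others. The share of all genes lower in every sarcoma was not counted, so these genes are a description only. Smarcb1 was at 4.42, 8.13, 35.1 and 11.5 CPM in these cells of sarcomas 1 to 4 and 84.9 CPM in the muscle cells. Over all filtered cells of the same sarcomas Smarcb1 was lower, at 2.48, 3.02, 20.5 and 0.484 CPM. Whether the cells that met the gate apart from Lpl are tumour cells was not tested.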

How the data were processed

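Per the labels' protocols, single-cell 3′ libraries were made with a 10x Genomics kit. The deposited values are raw UMI counts per gene and barcode. Per the file headers they come from Cell Ranger 6.0.1, and per the submitters' processing notes from mm10; no source used here names the annotation release. Barcodes under 500 genes or over 10% mitochondrial UMIs were dropped, 551 of 8658 in muscle. Counts were summed per class and divided by the class total to give CPM, and its 95% interval is the exact Poisson one. Intervals of shares are exact binomial ones (Clopper-Pearson). A gene was compared at 20 CPM or more in the higher class and counted at a 2-fold difference, with sums under 3 UMIs set to 3. There is 1 muscle library, cells are not replicates, and no p-value was computed.

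Shares of cells were taken after thinning to 2000 UMIs per cell, without shallower cells (10 members). Doublets were kept; Scrublet called 17 of 8107 cells (0.210%), which is too few for it to have worked, so its score was used only for ranking, and removing the top 6% was an alternative. Members held 3 of those cells (0.674%), against 6.32% of all other cells. The members, gene lists, markers and alternatives were chosen with earlier results of these data known; tenocyte-marker and Fabp4-based exclusions, and the split by Apoe, were added after the data were seen. Named genes were the 15 highest and 15 lowest against Lpl-low progenitors at 50 CPM or more, the 10 on each side of the other comparisons, the 3 most abundant of each list and any list gene past 2-fold against Lpl-low progenitors, and a fixed few. The comparison step was tested on simulated data. Positions are those of GENCODE on GRCm38. The tools were scanpy 1.11.5, pandas 2.3.3, scipy 1.17.1, numpy 2.4.6 and matplotlib 3.10.9 under Python 3.11.15. Alternatives were other Lpl thresholds, stricter cell filters, thinning, mean per-cell shares, other floors on low values and a gate on a random split of the UMIs.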

Additional observations from a re-analysis of the deposited data

Results flagged for a closer look

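Among the 4 sarcomas, 1 library stood apart from the others by a gap above Dixon's 95% critical value in 10 of 21 values checked, a rule that chance meets in about 1 in 20 groups. Levels of genes over the same cells are not independent of each other. Sarcoma 4 held 1 cell in the gate and the others 0, a set of counts that passes the critical value by its form alone. Sarcoma 1 held 7 cells over the Lpl threshold and the others 1 or 2. The other 8 were high values of sarcoma 3. Over all filtered cells of sarcoma 3, Apoe was at 96.1 CPM, Smarcb1 at 20.5 CPM, Cxcl14 at 757 CPM, Mmp3 at 860 CPM and Smoc2 at 274 CPM. In the cells of sarcoma 3 that met the gate apart from Lpl, Apoe was at 292 CPM, Mmp3 at 1868 CPM and Smoc2 at 526 CPM. Sarcoma 3 also had the most such cells, 26.7% of its filtered cells, against 5.85%, 6.43% and 0.557% in sarcomas 1, 2 and 4. Smarcb1 moves with these values, and its part was not tested.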

How the results depend on the processing

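No paired analysis was possible because the muscle group is 1 library and no test was made. The number of members, 445, was 1026 with Lpl at 10 or more and 67 with Lpl at 40 or more UMIs per 10,000. With Lpl at 40 or more, genes 2-fold higher and lower numbered 262 and 402 against all other cells, 165 and 192 against Lpl-low progenitors, and 471 were lower than in Dpp4-side progenitors. Those 67 cells held only 507161 UMIs, so counting error alone passes 2-fold more often. The Lpl-low class then also takes in the 378 cells at 20 to below 40. With Lpl at 10 or more, 15 genes were higher than in Lpl-low progenitors. Thinning each cell to 2000 UMIs before the gate gave 107 higher and 101 lower against Lpl-low progenitors and 484 and 529 against Dpp4-side progenitors. Thinned classes hold fewer UMIs, so counting error weighs more in these counts too. With no filter on low values the counts were 5960 and 841 against all other cells, 3645 and 392 against Lpl-low, and 5335 and 735 against Dpp4-side progenitors. These unfiltered counts depend on class size, because sums under 3 UMIs were set to 3 in each class. Members had 3.67e+06 UMIs in all, against 5.96e+07 in all other cells, 1.14e+07 in Lpl-low and 2.69e+07 in Dpp4-side progenitors. Genes with few or no UMIs in either class could thus be called higher in members. The unfiltered counts therefore do not measure how many genes differ. At 100 CPM or more, the counts in the same order of comparisons were 52 and 67, 11 and 9, and 106 and 107. Leaving out cells with tenocyte markers left 23 genes lower than in Lpl-low progenitors. The sarcoma cells in the gate, 1 in all, were 15 with Lpl at 10 or more and 3 after thinning. Every other alternative kept each count within 1.5 times.

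Of the 30 genes highest or lowest against Lpl-low progenitors, 27 kept their direction under all 12 alternatives. Fabp4 turned to a log2 ratio of -0.0124 with Lpl at 40 or more and to -1.09 without the 18 members rich in it. Timp1 turned to 0.0168 with Lpl at 40 or more. Comp turned to 0.55 without tenocyte-marker cells. The gate on a random split of the UMIs, with levels taken from the other UMIs, gave 32 genes higher and 40 lower than in Lpl-low progenitors. Counting error alone is covered by the intervals, and low genes and shares near 1 UMI per cell are limited by depth.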

Other observations

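The 33 cells that failed the gate only for lack of a Pdgfra UMI were shallower than the members, with a median of 4745 UMIs against 8142. They had C4b at 1138 CPM (989 to 1303), against 560 CPM in members, C3 at 2315 CPM, against 1083 CPM in members, and Pparg at 120 CPM (75.4 to 182), against 18.3 CPM in members. The 42 Lpl-high cells with 3 or more of the 5 excluded genes had Apoe at 1853 CPM, against 4028 CPM in members, Fst at 811 CPM, against 709 CPM in members, and Vcam1 at 92.4 CPM, against 192 CPM in members. Members with 0, 1 and 2 of the 5 excluded genes had Cxcl13 at 183, 37.5 and 22.4 CPM and Igfbp3 at 552, 303 and 366 CPM. Among the 18 Fabp4-rich members, Cpe was at 173 CPM, against 14.2 CPM in the other members, and Cdh11 at 183 CPM, against 30.7 CPM, while Myoc was at 82.2 CPM, against 832 CPM, and Mgp at 123 CPM, against 1602 CPM. These cells and genes were singled out after their values were seen.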
